A study of Homo sapiens with 7 samples.

Results

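Contractile and myofibroblast genes were followed across human dermal fibroblasts that expressed progerin or elevated levels of prelamin A. The 9 genes are ACTA2, ACTG2, TAGLN, CNN1, CALD1, TPM1, TPM2, MYL9 and TGFBI, taken by name from 19775 genes with a probe set of their own, and every probe set that the platform annotation gave to only 1 of these 9 genes was included. That gave 33 of the 54675 probe sets on the array. The probe set with the highest mean signal stood for each gene. All 9 genes were among the 12726 that reached a signal of 100 on at least 1 array, as were 29 of the 33 probe sets, and no gene was below 100 on every array. The dimmest was ACTG2, between 92.6 and 188 units.

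The 7 arrays covered 6 conditions, with 1 array each of progerin and FTI, progerin, prelamin A and FTI, prelamin A and ZMPSTE24, and prelamin A, and 2 arrays of control fibroblasts. Progerin is the truncated, permanently farnesylated lamin A of progeria, prelamin A is the precursor of lamin A, and ZMPSTE24 is the protease that matures it. FTI is L-744832, an inhibitor of protein farnesylation, given at 10 nM for 48 h. The labels give all 7 RNA samples as 1 strain of primary fibroblasts at passage 10, grown at low oxygen. The methods name 2 strains, each transduced and grown in duplicate, and which cultures the 2 controls stand for is not given in the sources used here. Progerin and prelamin A were introduced with lentiviral vectors, for which the methods name a CMV promoter, and transduced cells were sorted by GFP as populations. The labels of the 2 control arrays name no virus, and which arrays received the solvent DMSO is not given in the sources used here. The array of prelamin A and FTI was assigned by its treatment label, since its title leaves out prelamin A. Apart from the controls there was no replicate, and nothing says whether the 2 controls came from separate cultures. In the model of 6 conditions the residual spread therefore comes only from how far these 2 arrays lie apart, a distance that may be technical. For the p-value of a gene, limma combines the gene's own spread with 1 pooled over all genes tested. The pooled spread has the larger weight, with 3.5 degrees of freedom against 1.

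Fibroblasts carry little contractile protein at rest. When they become myofibroblasts, as in wound healing and fibrosis, smooth muscle actin joins the stress fibres together with tropomyosins, calponin, caldesmon and transgelin, and phosphorylation of the myosin light chain drives contraction. Transcription of these genes is known to depend on the serum response factor SRF with its partners of the MRTF and myocardin family, which bind an element called the CArG box, and on TGF-beta signaling.

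The signal is the MAS 5.0 intensity of a probe set, in units on a linear scale, and it was tested as log2(signal + 16). On that scale the change of a dim gene is understated. The probe sets of the introduced genes gave no check of the labels of prelamin A and ZMPSTE24. The brightest LMNA probe set, for the gene that encodes prelamin A and progerin, read 15240 units with progerin and FTI and 16289 with progerin. It read 9814 units with prelamin A and FTI, 9488 with prelamin A and ZMPSTE24 and 8498 with prelamin A, against 9300 and 14029 on the controls. Only the progerin arrays were above both controls. The brightest ZMPSTE24 probe set read 5779 units with prelamin A and ZMPSTE24, against 6120 with prelamin A. Whether these probe sets lie inside the introduced sequences is not given in the sources used here. The median signal of the arrays lay between 64.9 and 77 units. All 12 dermal fibroblast markers, among them COL1A1, DCN and PDGFRB, were above 100 units on every array, with a summed signal between 281086 and 341723. Of 4 keratinocyte, 5 endothelial, 3 leukocyte and 3 melanocyte markers with a probe set of their own, KRT5, KRT14, CDH5, PTPRC and MLANA were below 100 on every array, and PECAM1, TEK, CD14 and CD3E reached 100 on at least 1. KRT10 was above 100 on every array, between 4980 and 10671 units, and highest on the controls. TEK was higher than control by 3.49 on the log2 scale with progerin and by 2.77 with prelamin A, and CD14 by 2.01 with progerin and by 1.97 with prelamin A, and the part of this in the results was not tested. On the controls TEK read 23.5 and 2.2 units and CD14 87.2 and 55.3, so that these sizes depend on the 16 units added. The 3' to 5' ratio of β-actin, a sign of RNA quality, was 1.12 with progerin and FTI, 1.17 with progerin, 1.26 with prelamin A and FTI, 1.5 with prelamin A and ZMPSTE24, 1.62 with prelamin A, and 1.24 and 1.06 on the controls. The same ratio of GAPDH ran from 0.861 with prelamin A to 0.943 on control 2. The array of prelamin A, on which several of the genes below were lowest, had the highest ratio of β-actin and the lowest of GAPDH. The part of this in the results was not tested either. Between the controls 9.28% of the 12726 genes were over 2-fold apart, and 0 of the 9 were.

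RefSeq promoter windows of GRCh38.p14, from 250 bases before to 50 bases after each annotated start, were at hand for 7 of the 9 genes (12 windows). TAGLN and MYL9 were not matched. The windows were searched on both strands for the CArG box, which is CC and GG around 6 bases that are all A or T, for the same with at most 1 G or C in those 6 bases, and for the MCAT box CATTCC, a binding element of TEAD factors. An exact CArG box was in 1.29% of 35116 windows, the looser form in 8.13% and the MCAT box in 14.0%. ACTG2 had exact CArG boxes at 110 and 73 bases before its start, and the downstream start of ACTA2 had looser ones at 121 and 71 bases before it and an MCAT box on the other strand. Of 4 CALD1 windows, 1 held a looser CArG box and 2 others an MCAT box. None of the 3 motifs was found in the windows of CNN1, TPM1, TPM2 and TGFBI. A match is a description of the letters and not a measured site. The stretches that end at the base before the start are printed for both smooth muscle actin genes, which differ in the form of the box, and for CNN1, which had the widest range of signal over the arrays, with the matches in capitals.
ACTA2, chr10:88952774-88952966, minus strand: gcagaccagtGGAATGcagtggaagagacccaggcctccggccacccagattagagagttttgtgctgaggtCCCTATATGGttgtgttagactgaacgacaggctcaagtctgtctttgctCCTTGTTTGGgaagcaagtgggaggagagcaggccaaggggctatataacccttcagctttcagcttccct
ACTG2, chr2:73892888-73893007, plus strand: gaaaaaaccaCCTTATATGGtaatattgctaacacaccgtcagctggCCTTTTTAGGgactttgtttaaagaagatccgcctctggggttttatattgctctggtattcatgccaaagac
CNN1, chr19:11538751-11538850, plus strand: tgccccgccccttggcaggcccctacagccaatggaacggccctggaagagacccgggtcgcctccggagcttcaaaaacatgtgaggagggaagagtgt

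**Figure D1:**
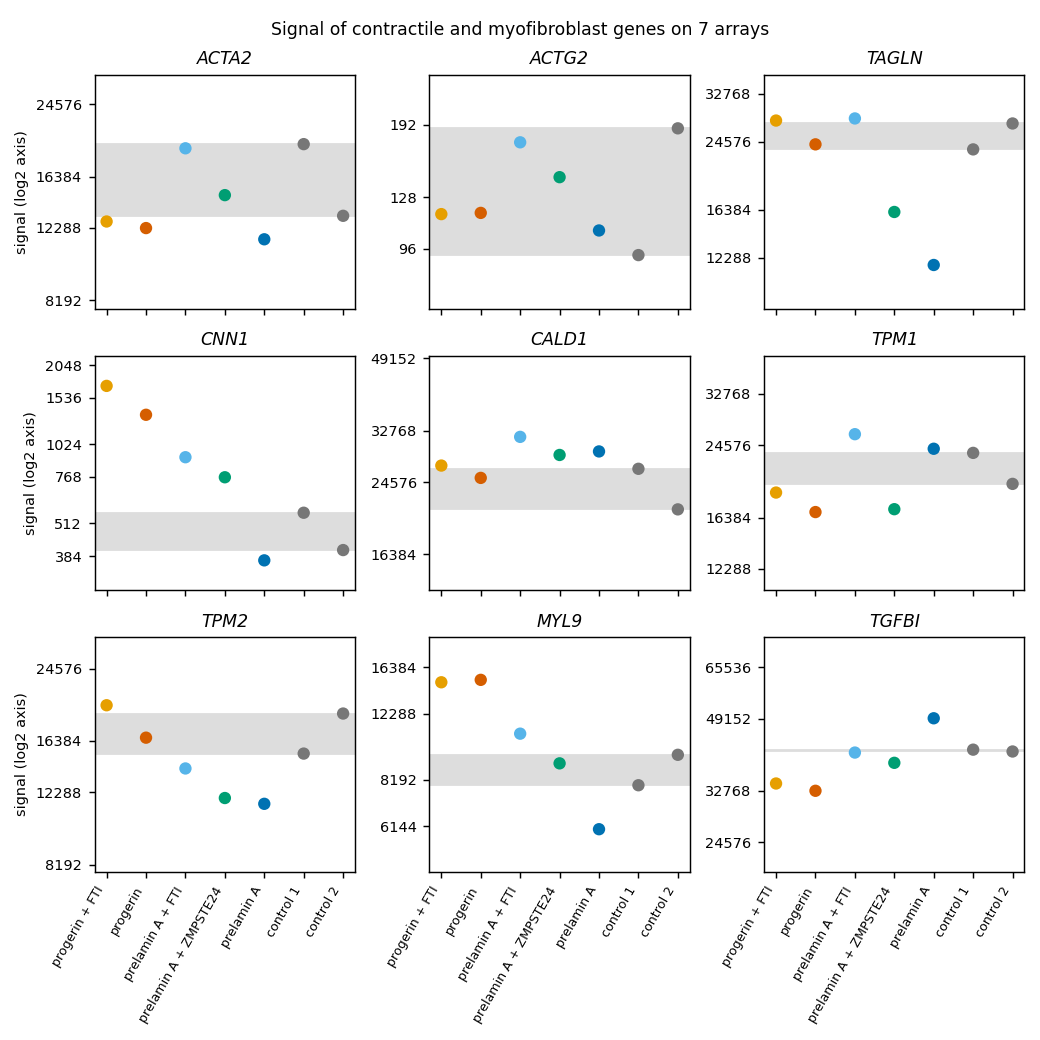
Signal (vertical axis, log2 scale) of the probe set that stands for each of the 9 genes on the 7 arrays (horizontal axis), with 1 point per array and the grey band spanning the 2 controls. CNN1 has the widest range, between 370 and 1706 units, and all 5 transduced arrays of ACTG2 lie inside the control band.

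The smooth muscle actins ranged over the 7 arrays by 1.7-fold for ACTA2 and 2.03-fold for ACTG2, with controls that lay far apart. ACTA2, which encodes the alpha isoform that defines a myofibroblast, read 12743 units with progerin and FTI, 12282 with progerin, 19205 with prelamin A and FTI, 14772 with prelamin A and ZMPSTE24, 11534 with prelamin A, and 19658 and 13156 on the controls. The arrays of progerin with and without FTI and of prelamin A alone were below both controls, but the controls themselves were 0.58 apart on the log2 scale, and in the order of the 6 conditions no neighbours were farther apart than that. The log2 difference from control was -0.39 with progerin and -0.48 with prelamin A (standard error 0.40 for each). In bulk RNA fewer cells of a type and less RNA per cell cannot be told apart, here and for every gene below. A second ACTA2 probe set read between 77 and 200 units, with differences of -0.56 and -0.57. ACTG2, the gamma isoform of enteric smooth muscle, read 116 units with progerin and FTI, 117 with progerin, 174 with prelamin A and FTI, 143 with prelamin A and ZMPSTE24, 106 with prelamin A, and 92.6 and 188 on the controls. The controls were the lowest and the highest of the 7, so that no difference from control went beyond their spread. Its other probe set was below 50 units on every array.

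Of the proteins that bind the thin filament, transgelin and calponin varied most. TAGLN, which encodes transgelin, an actin bundling protein and an early marker of smooth muscle, read 27909 units with progerin and FTI, 24208 with progerin, 28263 with prelamin A and FTI, 16162 with prelamin A and ZMPSTE24, 11774 with prelamin A, and 23490 and 27426 on the controls. The array of prelamin A was lowest and that of prelamin A and ZMPSTE24 next, both below the controls, while both FTI arrays were above them. In the order of conditions the steps over the control spread of 0.22 were those on either side of prelamin A and ZMPSTE24, by 0.58 to progerin above it and by 0.46 to prelamin A below it. A second bright probe set gave 15672 units with prelamin A and ZMPSTE24 and 11908 with prelamin A, against 22706 and 22626 on the controls.

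CNN1 encodes basic calponin, which inhibits the actomyosin ATPase and marks differentiated smooth muscle. It read 1706 units with progerin and FTI, 1325 with progerin, 913 with prelamin A and FTI, 766 with prelamin A and ZMPSTE24, 370 with prelamin A, and 561 and 405 on the controls. Of the 5 transduced arrays, 4 were above both controls and that of prelamin A was below both, with a 4.61-fold range over the 7 arrays. The steps larger than the 0.46 between the controls were those between progerin and prelamin A with FTI, by 0.53, and between prelamin A with ZMPSTE24 and control, by 0.67. CNN1 had only 1 probe set.

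CALD1, the gene of caldesmon, which holds tropomyosin and actin in the blocked state, read 26955 units with progerin and FTI, 25156 with progerin, 31656 with prelamin A and FTI, 28605 with prelamin A and ZMPSTE24, 29177 with prelamin A, and 26470 and 21088 on the controls. Every condition was within 0.12 of the next on the log2 scale, less than the 0.33 between the controls. Over the 11 CALD1 probe sets the difference between prelamin A and control was positive in all 11, from 0.05 to 1.67, whereas that between progerin and control was positive in 6. The 3 brightest probe sets differed from control by 0.09 to 0.43 with prelamin A. These probe sets share 1 gene and the same arrays and are not replicates.

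The tropomyosins lie along the actin filament and govern access of myosin. TPM1 read 18844 units with progerin and FTI, 16893 with progerin, 26136 with prelamin A and FTI, 17167 with prelamin A and ZMPSTE24, 24086 with prelamin A, and 23536 and 19783 on the controls. Progerin with and without FTI, and prelamin A with ZMPSTE24, were below both controls, and the other 2 transduced arrays were above both. All 6 TPM1 probe sets were lower with progerin than on the mean of the controls, by -0.35 to -1.30, and 5 of the 6 were lower with prelamin A and ZMPSTE24 than with prelamin A, the brightest by -0.49 and the other 4 by -0.82 to -1.31. TPM2 read 20011 units with progerin and FTI, 16686 with progerin, 14042 with prelamin A and FTI, 11898 with prelamin A and ZMPSTE24, 11518 with prelamin A, and 15262 and 19102 on the controls. All 3 prelamin A arrays were below both controls, and for neither tropomyosin did a step between neighbouring conditions exceed the control spread.

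MYL9, which encodes the regulatory light chain of smooth muscle and nonmuscle myosin, read 14945 units with progerin and FTI, 15170 with progerin, 10882 with prelamin A and FTI, 9060 with prelamin A and ZMPSTE24, 6033 with prelamin A, and 7915 and 9551 on the controls. Both progerin arrays stood above all others and the prelamin A array stood below them, with steps of 0.46 and 0.53 against 0.27 between the controls. The second MYL9 probe set was dim, between 67 and 135 units, and did not share these differences. It was at -0.27 with progerin and -0.53 with FTI in prelamin A cells, where the bright one was at 0.80 and 0.85, and it read 104 units with prelamin A and 106 with progerin. TGFBI, a secreted adhesion protein of the matrix that TGF-beta induces, read 34159 units with progerin and FTI, 32792 with progerin, 40626 with prelamin A and FTI, 38356 with prelamin A and ZMPSTE24, 49232 with prelamin A, and 41292 and 40870 on the controls. It was the only one of the 9 genes for which prelamin A gave the highest value of all 7 arrays. Its controls were 0.01 apart on the log2 scale, so that each of its 5 steps exceeded that spread, although the whole range was 1.5-fold.

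The effect of progerin or prelamin A was measured against the mean of the 2 controls in limma, in 1 model of the 6 conditions. A gene was called when it passed 2-fold with an unadjusted p below 0.05. Of the 9 genes, 1 was called higher and 0 lower in progerin cells, against 3.76% and 2.04% of all genes tested. CNN1 rose by 1.44 in log2 terms (standard error 0.37, unadjusted p = 0.0140, adjusted p = 0.521 from limma), at 1325 units with progerin and 561 and 405 on the controls. MYL9 followed at 0.80 (standard error 0.34, unadjusted p = 0.0694 from limma), and the other 7 genes were between -0.39 and 0.09. In prelamin A cells 0 were called higher and 1 lower, against 6.29% and 4.02% of all genes. TAGLN fell by 1.11 (standard error 0.33, unadjusted p = 0.0243, adjusted p = 0.324 from limma), and 2 other TAGLN probe sets differed by -0.93 and -0.74. Against control 1 alone TAGLN was -1.0 and against control 2 alone -1.22. TPM2, MYL9 and ACTA2 were at -0.57, -0.53 and -0.48 with prelamin A, and CALD1, TGFBI and TPM1 at 0.30, 0.26 and 0.16. The median of the 9 genes was -0.07 with progerin and -0.35 with prelamin A, beside 0.01 and -0.02 for all genes, and 6 of 9 were below 0 in each comparison, beside 49.3% of all genes with progerin and 51.5% with prelamin A. The comparisons share their controls, and 4 genes (ACTA2, ACTG2, TAGLN and TPM2) were below 0 in both.

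**Figure D2:**
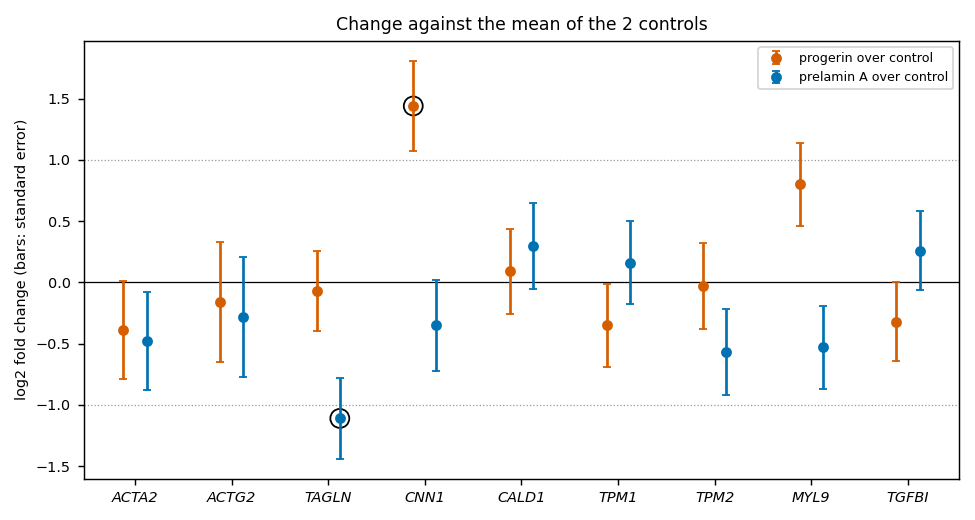
Log2 fold change (vertical axis) of each gene (horizontal axis) with progerin and with prelamin A over the mean of the 2 controls, with the standard error from limma, dotted lines at a 2-fold change and rings around called values. The 2 rings are CNN1 in progerin cells at 1.44 and TAGLN in prelamin A cells at -1.11.

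The untreated lines were then set directly against each other. In prelamin A cells 3 of the 9 genes were called lower than in progerin cells and 0 higher, against 3.46% and 3.59% of all genes tested. CNN1 was at 370 units with prelamin A and 1325 with progerin, a log2 difference of -1.80 (standard error 0.43, unadjusted p = 0.0106, adjusted p = 0.618 from limma). MYL9 was at 6033 units with prelamin A and 15170 with progerin, a difference of -1.33 (standard error 0.39, unadjusted p = 0.0226 from limma) that its dim second probe set did not share, and TAGLN at 11774 units with prelamin A and 24208 with progerin, a difference of -1.04 (standard error 0.38, unadjusted p = 0.0473 from limma). The second bright TAGLN probe set read 11908 units with prelamin A and 19554 with progerin, while the third and dimmer one went the other way, at 336 and 267. The call for TAGLN was lost with a pseudocount of 1, with median centring, without the filter on dim probe sets and with every probe set in the fit, at unadjusted p-values from 0.0565 to 0.0635 from limma. In the other direction TGFBI was at 0.59 and TPM1 at 0.51, neither called. Each of these compares 1 array with 1 array.

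FTI was set against the untreated line in both backgrounds. In progerin cells 0 of the 9 genes were called, against 1.45% of all genes, also 0 at an unadjusted p under 0.05 from limma, and the changes lay between -0.02 for MYL9 and 0.36 for CNN1 (standard error 0.43). In prelamin A cells 2 were called higher and 0 lower, against 1.19% and 1.62% of all genes. CNN1 rose by 1.27 (standard error 0.43, unadjusted p = 0.0356 from limma), at 913 units with prelamin A and FTI and 370 with prelamin A. TAGLN rose by 1.26 (standard error 0.38, unadjusted p = 0.0254 from limma), at 28263 units with prelamin A and FTI and 11774 with prelamin A, and its other probe sets were at 1.08 and 0.79. Both had an adjusted p of 1 from limma. MYL9 was at 0.85, ACTA2 at 0.73 and ACTG2 at 0.64, none called, and TGFBI alone was below 0, at -0.28. The median of the 9 genes was 0.64 beside -0.01 for all genes, and 8 of 9 were above 0 beside 48.3% of all genes. The array of prelamin A and FTI was the highest of the 5 transduced arrays for 5 of the 9 genes (ACTA2, ACTG2, TAGLN, CALD1 and TPM1), beside 17.3% of all genes, and prelamin A was the lowest for 6 of 9 (ACTA2, ACTG2, TAGLN, CNN1, TPM2 and MYL9), beside 22.9% of all genes. Every comparison with prelamin A rests on that 1 array.

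The effect of FTI in prelamin A cells minus that in progerin cells was called for 0 of the 9 genes, against 1.84% of all genes, with 0 at an unadjusted p under 0.05 from limma. It was 1.06 for TAGLN (standard error 0.54, unadjusted p = 0.115 from limma), 0.91 for CNN1 (0.60), 0.87 for MYL9 (0.55) and 0.68 for ACTA2 (0.65). A response to FTI in prelamin A cells and none called in progerin cells is therefore not shown to be a difference between the lines. With an intensity trend in limma the difference for TAGLN was called, at an unadjusted p of 0.0158 from limma.

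ZMPSTE24 in prelamin A cells gave 0 calls among the 9 genes, against 5.04% of all genes (2.18% higher and 2.85% lower), and 0 at an unadjusted p under 0.05 from limma. CNN1 was higher by 1.02 (standard error 0.43, unadjusted p = 0.0683 from limma), at 766 units with ZMPSTE24 and 370 without, and was called with an intensity trend in limma, at an unadjusted p of 0.0402 from limma. MYL9 was at 0.59, TAGLN at 0.46, ACTG2 at 0.38 and ACTA2 at 0.36, while TPM1 was at -0.49 and TGFBI at -0.36. The other TAGLN probe sets were at 0.4 and -0.32. Of the 9 genes, 9 were lower with ZMPSTE24 than with FTI in prelamin A cells, beside 51.0% of all genes, with a median of -0.26 beside -0.01, but 0 were called, against 3.93% of all genes, and 0 had an unadjusted p under 0.05 from limma. The largest of these differences was that of TAGLN, -0.81 (standard error 0.38, unadjusted p = 0.0958 from limma), and the next that of TPM1, -0.61 (standard error 0.39). The comparisons of FTI and of ZMPSTE24 share the prelamin A array.

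**Figure D3:**
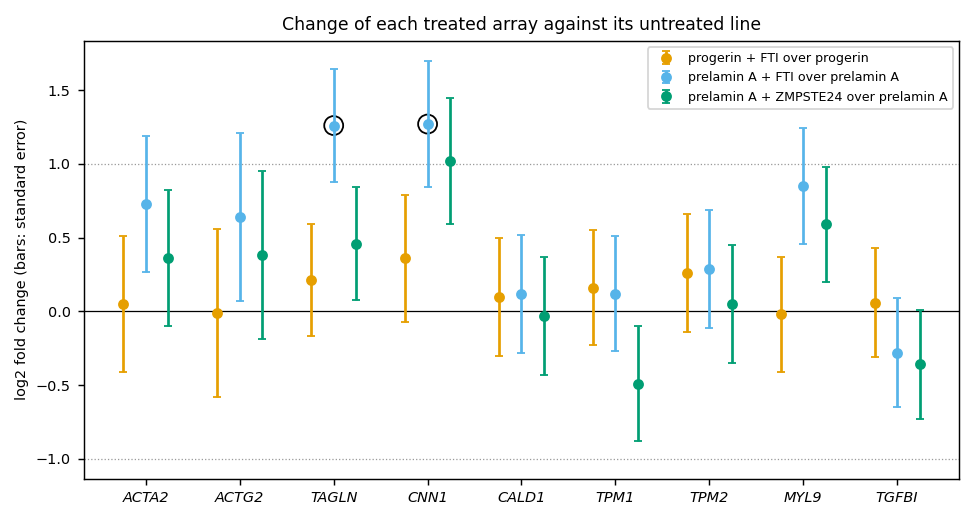
Log2 fold change (vertical axis) of each gene (horizontal axis) on a treated array over its untreated line, with the standard error from limma, for FTI in progerin cells, FTI in prelamin A cells and ZMPSTE24 in prelamin A cells. Rings mark called values, TAGLN at 1.26 and CNN1 at 1.27 with FTI in prelamin A cells, and all 9 ZMPSTE24 points lie below the FTI points of the same line.

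When the 5 transduced arrays were grouped as lamin arrays (progerin and prelamin A) and treated arrays (the other 3), 0 of the 9 genes were called in limma between lamin and control, between treated and lamin or between treated and control, against 5.54%, 0.471% and 6.25% of all genes, and 0 had an unadjusted p under 0.05 in any of the 3. CNN1, at 1.13 between treated and control arrays (standard error 0.57, unadjusted p = 0.0927 from limma), was the only one past 2-fold. Because CNN1 and MYL9 were above control in progerin cells and below it in prelamin A cells, the mean of the lamin arrays lay between opposite values. Leaving out 1 array changed these counts for 2 of the arrays. Without the progerin array TAGLN was called between lamin and control, at -1.11, and CNN1 between treated and lamin, at 1.48, and between treated and control, at 1.13. Without the prelamin A array CNN1 was called between lamin and control, at 1.44, and between treated and control, at 1.13.

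The 33 probe sets gave a wider picture than the 9 brightest. With prelamin A and FTI against prelamin A, 23 were higher and 10 lower, and with ZMPSTE24 12 were higher and 21 lower, the lower ones including 9 of 11 for CALD1 and 5 of 6 for TPM1. These counts give most weight to the genes with many probe sets, and the share over all probe sets was not computed. They also include probe sets below 100 units on every array. By the brightest probe set, 8 of 9 genes were higher with FTI and 6 of 9 with ZMPSTE24. Over all 33 the difference between prelamin A and control ran from -1.11 for TAGLN to 1.67 for a CALD1 probe set. Below a mean of 100 units the differences between prelamin A and control ran from -0.95 for TPM1 to 1.45 for ACTG2, while the brightest probe sets of these genes were at 0.16 and -0.28.

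**Figure D4:**
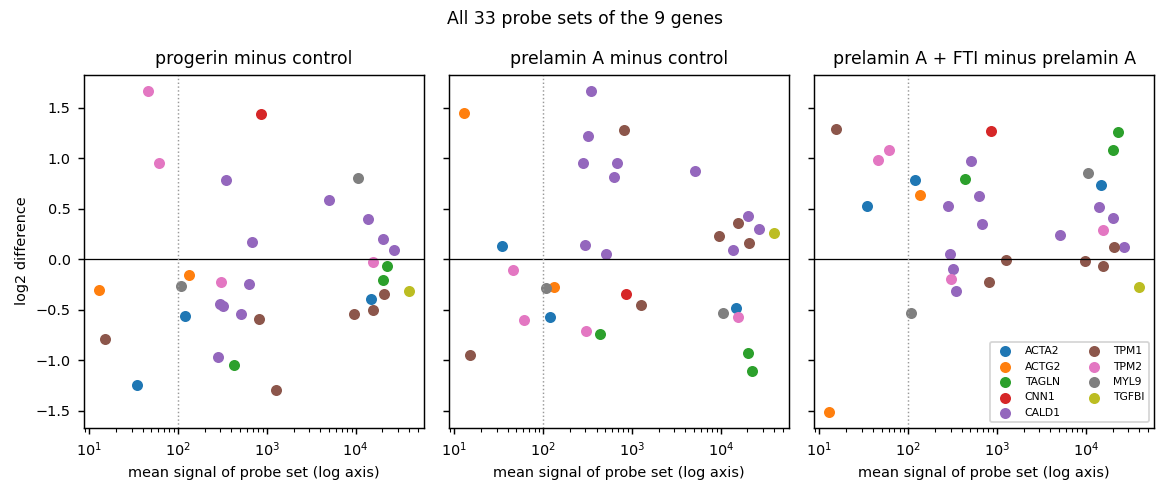
Log2 difference (vertical axis) of each of the 33 probe sets against its mean signal over the 7 arrays (horizontal axis, log scale), in 3 panels for progerin minus control, prelamin A minus control and prelamin A with FTI minus prelamin A, coloured by gene. The dotted line marks 100 units, the 3 TAGLN probe sets lie below 0 in the second panel and above it in the third, and the 11 CALD1 probe sets all lie above 0 in the second.

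Other genes of the contractile programme were taken from lists. Of 12 tested out of 16 smooth muscle genes, 1 was called higher and 0 lower with progerin, 0 and 2 with prelamin A, 1 and 0 with FTI in prelamin A cells, 1 and 0 with ZMPSTE24, and 0 with FTI in progerin cells. Of all genes 3.76% were called higher and 2.04% lower with progerin, 6.29% and 4.02% with prelamin A, 1.19% and 1.62% with FTI in prelamin A cells, and 2.18% and 2.85% with ZMPSTE24. MYOCD, the gene of myocardin, the SRF coactivator of smooth and cardiac muscle, read 101 units with progerin and FTI, 105 with progerin, 261 with prelamin A and FTI, 102 with prelamin A and ZMPSTE24, 40.4 with prelamin A, and 35.4 and 36.4 on the controls. The array of prelamin A was close to the controls, and the other 4 were well above them. MYOCD rose by 1.22 with progerin (standard error 0.32, unadjusted p = 0.0152 from limma), by 2.30 with FTI in prelamin A cells (standard error 0.37) and by 1.06 with ZMPSTE24. Its difference in FTI effect between the lines was 2.34 (standard error 0.52, unadjusted p = 0.00831, adjusted p of 1 from limma). Since 3 of its 7 values were below 100 units, these sizes depend on the pseudocount. CSRP1, a LIM protein of smooth muscle, and PDLIM5, which tethers kinases to the Z-disc, were the 2 called lower with prelamin A, at -1.51 and -1.04. MYH11, the smooth muscle myosin, and DES, desmin, were below 100 units on every array.

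Among 11 tested of 12 genes around SRF and MRTF, KLF4 was the only one called, 1 of 11 with progerin, with FTI in prelamin A cells and with ZMPSTE24, higher each time. Of all genes 3.76% were called higher with progerin, 1.19% with FTI in prelamin A cells and 2.18% with ZMPSTE24. KLF4 is a zinc finger factor that represses smooth muscle genes in vascular cells. It read 8026 units with progerin and FTI, 8270 with progerin, 5084 with prelamin A and FTI, 7449 with prelamin A and ZMPSTE24, 2156 with prelamin A, and 3822 and 3156 on the controls. As for CNN1 and MYL9, prelamin A was lowest and progerin was above the controls. The rises were 1.25 with progerin, 1.23 with FTI and 1.78 with ZMPSTE24 in prelamin A cells. SRF, MRTFA, MRTFB and YAP1 were tested and not called in these comparisons. Of 14 broadly expressed actomyosin genes tested, MYH9, the heavy chain of nonmuscle myosin, was lower with prelamin A by -1.19 and no other was called in the 5 comparisons with control or of treatment. The share of all genes called lower with prelamin A was 4.02%.

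**Figure D5:**
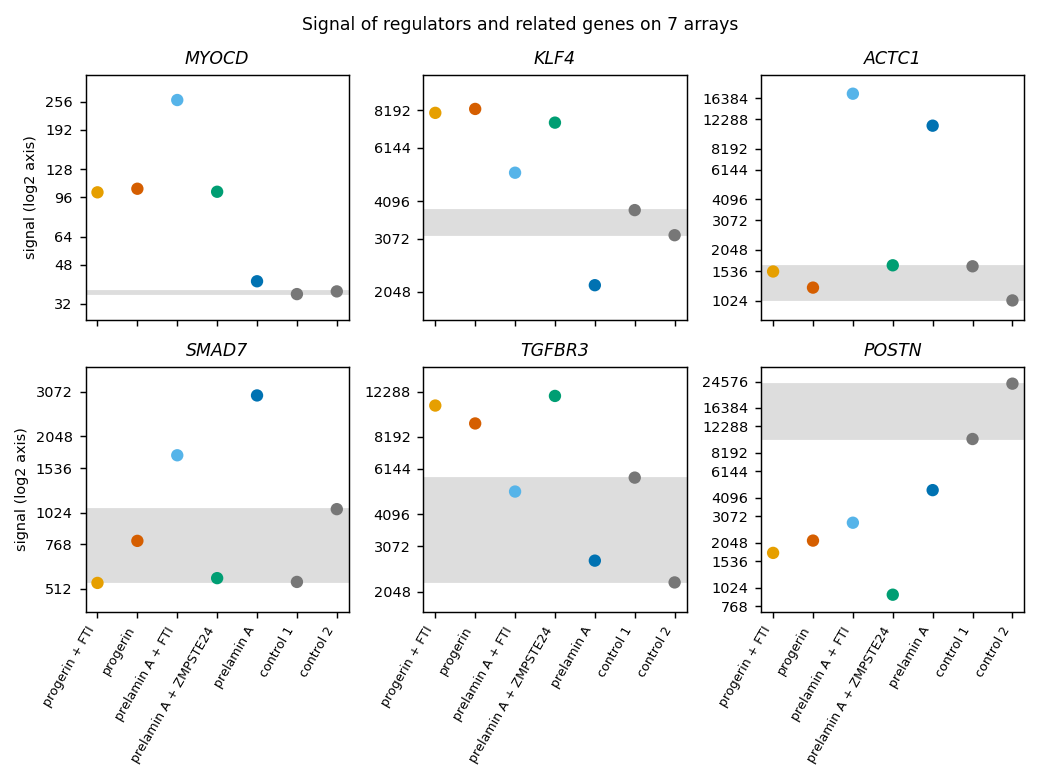
Signal (vertical axis, log2 scale) of 6 genes of the smooth muscle, SRF, TGF-beta and striated muscle lists on the 7 arrays (horizontal axis), 1 point per array, with the grey band spanning the 2 controls. MYOCD is highest with prelamin A and FTI at 261 units, and ACTC1 stands apart at 17384 units with prelamin A and FTI and 11224 with prelamin A.

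The TGF-beta pathway was taken as ligands, receptors and SMADs and as response genes. Of 22 ligands, receptors and SMADs, 1 was called higher and 2 lower with progerin, 2 and 0 with prelamin A, 1 and 1 with ZMPSTE24, and 0 with FTI in either line. The shares of all genes called higher and lower were 3.76% and 2.04% with progerin, 6.29% and 4.02% with prelamin A, and 2.18% and 2.85% with ZMPSTE24, and for FTI in prelamin A cells 1.19% and 1.62%. SMAD7 and SMAD6, the inhibitory SMADs, were the 2 higher with prelamin A. SMAD7 read 539 units with progerin and FTI, 791 with progerin, 1725 with prelamin A and FTI, 563 with prelamin A and ZMPSTE24, 2976 with prelamin A, and 544 and 1056 on the controls. It rose by 1.95 with prelamin A (standard error 0.50) and fell by 2.37 with ZMPSTE24 (standard error 0.58), and SMAD6 rose by 2.25 with prelamin A. TGFBR3, the betaglycan coreceptor, rose by 2.12 with ZMPSTE24, to 11816 units against 2701 in prelamin A cells, and read 5683 and 2222 units on the controls. Of 19 tested response and matrix genes, 2 were called lower with progerin, 1 higher and 3 lower with prelamin A, 2 lower with FTI in prelamin A cells and 3 lower with ZMPSTE24. POSTN, periostin of the myofibroblast matrix, fell by 2.87 with progerin and by 1.75 with prelamin A, to 2112 and 4600 units against 10122 and 23772 on the controls. It fell by 2.31 with ZMPSTE24 in prelamin A cells, to 917 units against 4600 in prelamin A cells, and ELN, elastin, fell by 4.14, to 32.8 units against 843. On the controls ELN read 215 and 534 units. The size of its fall rests on 1 dim value and depends on the pseudocount. TGM2, which crosslinks matrix proteins, rose by 1.80 with prelamin A and fell by 1.93 with ZMPSTE24. The collagens COL1A1, COL1A2 and COL3A1 of this list are also dermal fibroblast markers.

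Among markers of other contractile cells, a cardiac actin stood out. ACTC1, the alpha actin of heart muscle, read 1526 units with progerin and FTI, 1224 with progerin, 17384 with prelamin A and FTI, 1661 with prelamin A and ZMPSTE24, 11224 with prelamin A, and 1638 and 1027 on the controls. It rose by 3.10 with prelamin A (standard error 0.42, unadjusted p = 0.00112 from limma) and fell by 2.74 with ZMPSTE24 (standard error 0.48), and with FTI it was at 0.63 (standard error 0.48), not called. Of the 12 striated muscle markers only ACTC1 and TNNT3 reached 100 units on any array, TNNT3 only with progerin at 115 units, and MYOD1, MYOG, MYF5, MYH3, MYH7 and the skeletal actin gene ACTA1 were below 100 on all 7. The summed signal of the list was 1739 units with progerin and FTI, 1550 with progerin, 17603 with prelamin A and FTI, 1909 with prelamin A and ZMPSTE24, 11387 with prelamin A, and 1879 and 1182 on the controls, most of it ACTC1. Of 8 pericyte and vascular smooth muscle markers, KCNJ8 and ABCC9, which form a potassium channel, were called higher with prelamin A, by 2.23 and 1.96, and KCNJ8 with progerin, by 1.08. The shares of all genes called higher were 6.29% with prelamin A and 3.76% with progerin. None of the other 4 tested was called in these comparisons, NOTCH3 being at -1.01 with prelamin A, CSPG4 at -0.20, RGS5 at 0.94 and MCAM at 0.42, with MYH11 and DES below 100 units throughout. The summed signal of these 8 lay between 2076 and 3026 units on the transduced arrays and at 1558 and 1408 on the controls. Only KCNJ8 and ABCC9 were above both controls on every transduced array, so the higher sum is not a trait of the list. KCNJ8 read 627 to 1412 units on the transduced arrays and 240 and 347 on the controls. ABCC9 read 266 to 595 units, against 116 and 170.

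The genes whose log2 values over the 7 arrays were most like those of ACTA2, among 5062 with a range of at least 1, were ITGB2-AS1, NMNAT2, CTLA4, SLC49A3 and PCAT4, with Pearson r of 0.978, 0.968, 0.949, 0.930 and 0.928. These r describe 7 arrays that share lines and controls. All 5 genes were dim, with 237 units as the highest value.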

How the data were processed

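Total RNA of 7 samples was hybridised to 7 Affymetrix Human Genome U133 Plus 2.0 arrays. The deposited intensity of each probe set is the MAS 5.0 signal that the authors scaled per array. The mean after trimming 2% at each end was 500 on every array, which is not the target that the methods give. Nothing was renormalized. Of 54675 probe sets, 41091 name 1 gene in the platform annotation, 1801 several and 11721 none, 62 are controls, and 41037 were matched to RefSeq by gene ID. Genes were read from their probe set of highest mean signal, kept at a signal of 100 on at least 1 array, and tested on log2(signal + 16) with lmFit and eBayes of limma 3.58.1 in R 4.3.3, p-values being adjusted by Benjamini-Hochberg over all 12726 genes. The model of 6 conditions left 1 residual degree of freedom, since only the controls were replicated, beside 3.5 of the eBayes prior. That of 3 states left 4 beside 2.6. A gene was called past 2-fold at an unadjusted p under 0.05. All 9 genes are named, and of each other list up to 3 called genes of largest change. Uncalled regulators and genes below 100 units were named after their values were seen. A further gene list is not reported here. The methods' S-score test needs probe-level data and was not run. The steps were tested on simulated data, in which the noise of all 7 arrays was drawn from the spread between the 2 controls. Whether the arrays without a replicate vary like the controls was therefore not tested. The genes and lists were chosen with earlier results of these data known. The number of arrays limits the precision.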

Additional observations from a re-analysis of the deposited data

Results flagged for a closer look

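CNN1, MYL9 and TAGLN differed between the lines in the direct test of prelamin A against progerin, at -1.80 (standard error 0.43), -1.33 (0.39) and -1.04 (0.38) on the log2 scale, which is the difference between the effects of prelamin A and of progerin against the same controls. Each value sets 1 prelamin A array against 1 progerin array. The dim second MYL9 probe set read 104 units with prelamin A and 106 with progerin. Of the other TAGLN probe sets, the bright one read 11908 and 19554 units and the dimmer one went the other way, at 336 and 267. The β-actin 3' to 5' ratio was 1.62 on the prelamin A array and 1.17 on the progerin array, and that of GAPDH was 0.861 and 0.928. The part of RNA quality in these differences was not tested. The unadjusted p-values from limma were 0.0106, 0.0226 and 0.0473 and the adjusted ones 0.618, 0.651 and 0.701. Over 11 alternatives the unadjusted p from limma ranged from 0.00275 to 0.0170 for CNN1, from 0.00181 to 0.0331 for MYL9 and from 0.00295 to 0.0635 for TAGLN. Some of the 11 changed only the rule for a call and so kept the p-value of the main fit.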

How the results depend on the processing

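No paired analysis was possible because the labels share no replicate numbers between groups. Treated and untreated arrays do share a line, and with the line as a block 0 of the 9 genes were called between treated and lamin arrays, as without it. With an unadjusted p under 0.01, or an adjusted p under 0.05, from limma, 0 of the 9 genes were called for progerin against control, prelamin A against control, FTI in prelamin A cells and prelamin A against progerin, where 1, 1, 2 and 3 were called. An intensity trend in limma gave 1 call each for ZMPSTE24 in prelamin A cells (CNN1, 1.02) and for the difference in FTI effect (TAGLN, 1.06), where there were 0. Leaving out 1 array gave 0 to 1 calls in each of the 3 comparisons of states. As a choice made after seeing the data, each control was used alone, which gave 0 to 1 genes past 2-fold with prelamin A (TAGLN at -1.0 without control 2 and at -1.22 without control 1) and 1 to 1 with progerin. Of the settings of these counts, 131 stayed within 1.5 times and the 16 above did not. The 131 include counts of 0 that stayed at 0, which a stricter rule could not have changed. They also include the settings in which prelamin A against progerin lost its TAGLN call. The tally is therefore no measure of how firm the calls are. The 30 values that changed sign were of differences that were not called. Quantile normalization gave 0.09 for TAGLN and TPM2 with progerin, 0.06 for ACTG2 and -0.02 for TGFBI with FTI in progerin cells, -0.02 for TPM2 with ZMPSTE24, and -0.06 for TPM1 between treated and lamin arrays, which was -0.04 with the line as a block. Median centring gave 0.01 for ACTG2 with FTI in progerin cells. Leaving out 1 array, the difference between lamin and control arrays ran from -0.68 to 0.23 for ACTG2, -0.35 to 1.44 for CNN1, -0.35 to 0.16 for TPM1, -0.53 to 0.80 for MYL9 and -0.32 to 0.26 for TGFBI. That between treated and lamin arrays ran from -0.05 to 0.99 for TAGLN, -0.31 to 1.48 for CNN1, -0.01 to 0.21 for CALD1, -0.24 to 0.27 for TPM1, -0.16 to 0.38 for TPM2, -0.41 to 0.91 for MYL9 and -0.39 to 0.20 for TGFBI. That between treated and control arrays ran from -0.36 to 0.22 for ACTA2, -0.36 to 0.55 for ACTG2, -0.26 to 0.15 for TAGLN and -0.26 to 0.04 for TPM1. The cause was not tested.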
